A study of Mus musculus with 4 samples.

Results

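Presomitic mesoderm and somite boundary genes were examined in whole mouse embryos lacking the orphan nuclear receptor Nr6a1, formerly called Gcnf. The set held 10 genes listed for their roles in this tissue, Tbx6, Msgn1, Mesp1, Mesp2, Ripply2, Pcdh8, Pcdh19, Snai1, Cited1 and Tcf15. Every probe set that the platform annotation gives to 1 of these symbols alone was taken, which gave 13 of the 45037 probe sets tested and 10 of the 18193 genes with a single symbol. The arrays came from 2 wildtype embryos (labelled wt) and 2 homozygous mutant embryos (labelled Gcnf-/-), collected as whole embryos at embryonic day 9.0 (E9.0), with no treatment in either group. The study's methods describe RNA taken from each whole embryo and give a collection window that runs past the labelled stage, while the somite number of each embryo is not given in the sources used here. Values are log2 signals from robust multi-array averaging (RMA), so that a difference of 1 is a 2-fold change.

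The presomitic mesoderm is the unsegmented tissue behind the last somite, fed by progenitors of the tail end and kept immature by Wnt and FGF signals. Tbx6 and Msgn1 commit cells to this tissue, and oscillating Notch signalling and Tbx6 together switch on Mesp2 where the next boundary will form. Ripply2 then ends Tbx6 activity there, protocadherins change adhesion, and Tcf15 drives the new somite to become an epithelium.

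None of the 10 genes passed the study's thresholds, and they did not move one way. Tbx6 and Cited1 had the largest positive differences, 1.63-fold and 1.44-fold higher in the mutant mean, and Tcf15 was 1.29-fold lower with replicates that barely differed. At an adjusted p of 0.05 and a change of at least 2-fold, limma called 0 of the 13 member probe sets, against 0.382% of all probe sets, and 0 of the 10 genes, against 0.544% of all genes. At any fold, 0 member genes reached an adjusted p of 0.05, against 1.40% of all genes. At an unadjusted p under 0.05 there were 5, namely 3 higher and 2 lower, against 23.8% of all genes.

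Of the 10 genes, 5 lay above wildtype and 5 below, with a median log2 difference of 0.039 beside -0.010 over all genes. Taken without sign, their median log2 difference was 0.35, beside 0.11 over all genes and 0.12 over genes with a mean log2 signal above 6, a level that 9 of the 10 members exceed. The members were chosen with earlier results of these data known, so this size is a description alone. The median gap between mutant replicates of the members was 0.19 beside 0.085 over all genes, while that between wildtypes was 0.070 beside 0.083. The larger gap was in the mutants for 6 of the 10, and not for the others, which include Tbx6 and Tcf15. Both mutants lay above both wildtypes for 3 members (26.2% of all genes) and below them for 4 (30.4% of all genes). For 9 of the 10 genes the 95% interval of the difference lay inside 2-fold in both directions, and for the other, Pcdh8, its lower end passed it. These 9 include Ripply2, which may not lie above background, and the share over all genes is not given here. In whole embryos, a change in the number of presomitic cells and a change in RNA per cell cannot be told apart. The study cites a slower pace of development in embryos that lack Nr6a1 completely, and a difference in stage cannot be told apart here either.

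**Figure D1:**
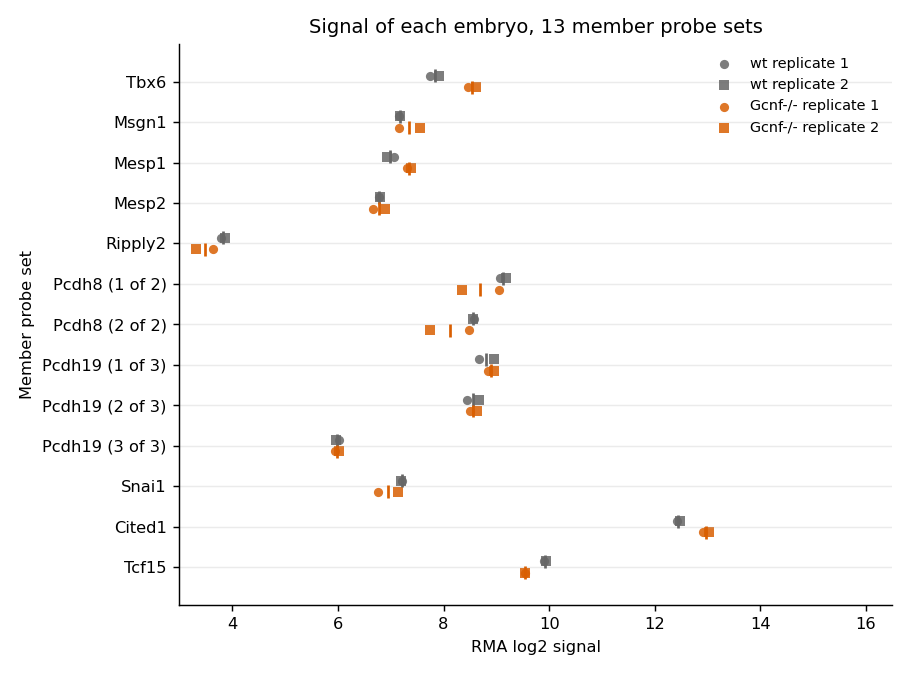
The 13 member probe sets (vertical axis, brightest first within a gene) with their RMA log2 signal in the 4 embryos (horizontal axis), where grey marks wt and orange Gcnf-/-, circles replicate 1 and squares replicate 2, and vertical bars the means of 2 embryos. Both mutants of Tbx6, Mesp1 and Cited1 lie right of both wildtypes and those of Tcf15 left of them, whereas for Pcdh8 mutant replicate 2 alone lies far to the left.

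**Figure D2:**
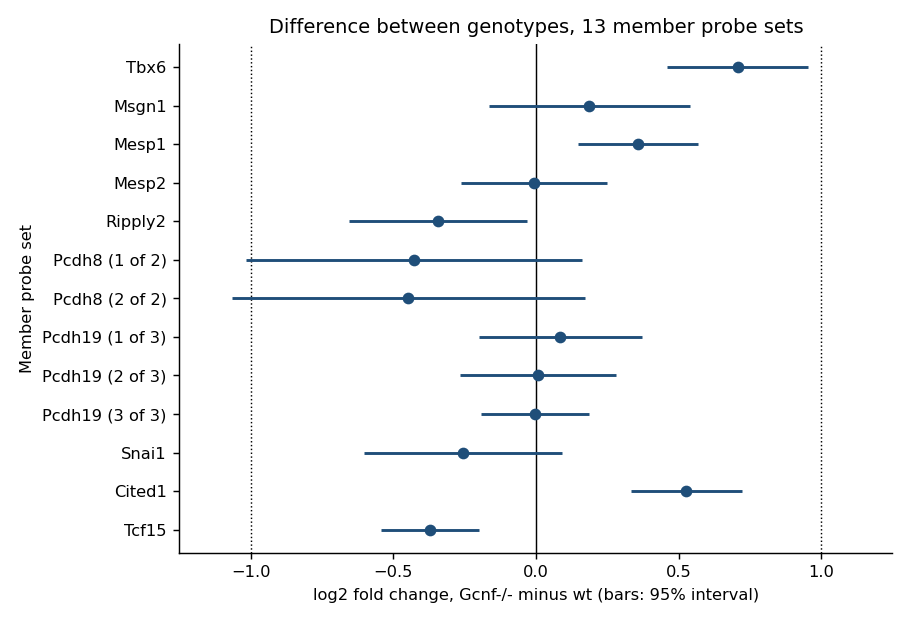
Log2 fold change (horizontal axis, Gcnf-/- minus wt) of the 13 member probe sets with its 95% interval from limma (n = 2 embryos per genotype). Dotted lines mark 2-fold. Tbx6 at 0.71 is farthest above 0, and only the 2 probe sets of Pcdh8 have an interval that crosses a dotted line.

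Several facts of the whole series touch these values. Wildtype replicate 1 was female by its Xist signal of 13.11, against 6.44 to 6.68 in the other embryos, which were male. Probe sets for 18S ribosomal RNA read higher in mutants by 1.06 on the log2 scale. The 5 Nr6a1 probe sets themselves lay 0.052 to 0.56 above wildtype, the brightest reading 11.53 and 11.80 in wildtype and 11.87 and 12.14 in mutants, and 0 were called. Their position with respect to the deletion is unknown here, and they therefore do not check the labels. Of the markers of other tissues, only Myl3 of heart muscle was called. In the heart list both mutants lay above both wildtypes for 6 of 7 genes, with a summed linear signal of 28940 to 33314 in wildtype and 40589 to 42229 in mutants, and in the primitive erythroid list for 4 of 5 measured (61447 to 62989 against 65196 to 70147), beside 26.2% of all genes. Both mutants lay below both wildtypes for 5 of 6 neural crest markers (3212 to 3416 against 2486 to 2606) and 4 of 6 yolk sac endoderm markers (73406 to 79405 against 64889 to 73307), beside 30.4% of all genes. Neural tube markers summed to 7334 to 7925 in wildtype and 7721 to 7912 in mutants, and endothelial markers to 2621 to 2680 and 2636 to 2643. The part of these marker differences and of ribosomal RNA in the members' values was not tested.

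The promoters of the members give the letters of the 2 elements most relevant to segmentation and to core transcription. RefSeq windows from 250 bases before to 50 bases after a transcription start were found for 9 of the 10 genes, 11 windows in all because Cited1 has 3 starts. Tcf15 has no entry. Genes of the boundary are shown first, because Tbx6 is a T-box factor and Mesp2 and Ripply2 are known to depend on it. The T-box letters searched on both strands were TCACACC and the shorter CACACC contained in it. TCACACC occurred in the windows of Mesp1 and Ripply2 and in 3.98% of all 32851 windows, and CACACC in those of Mesp1, Mesp2 and Ripply2 and in 19.0% of all windows. The stretches below are 30 bases each, 5′ to 3′ on the strand of the gene, in GRCm38.p6, with these letters in capitals. That of Mesp1 is chr7:79793567-79793596 on the minus strand, with the match 6 to 12 bases after the start. That of Mesp2 is chr7:79810743-79810772 on the plus strand (29 to 34 after the start), and that of Ripply2 is chr9:87015399-87015428 on the plus strand (-127 to -121).
Mesp1: aggggcccgctTCACACCtagggctcagga
Mesp2: ggggtcagaatcCACACCtctgcaaatggg
Ripply2: gttgcacgcgtTCACACCcgcgcgcggccc

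The TATA box letters TATAAA lie before a start in Tbx6, Cited1 and Pcdh8. Tbx6 and Cited1 were higher in both mutants and Pcdh8 was lower in the mutant mean, while Mesp1, higher in both mutants, lacks them. A link between the TATA box letters and a direction was not tested. These letters occurred on either strand in 4 of the 11 member windows and in 13.6% of all windows. The 100 bases before the start are shown for Tbx6 (chr7:126781383-126781482, plus strand) and for the start of Cited1 that lies farthest upstream (chrX:102252182-102252281, minus strand), in GRCm38.p6, with TATAAA in capitals at -43 to -38 and -13 to -8. The stretch of Pcdh8 is 30 bases (chr14:79771325-79771354, minus strand, match at -30 to -25).
Tbx6: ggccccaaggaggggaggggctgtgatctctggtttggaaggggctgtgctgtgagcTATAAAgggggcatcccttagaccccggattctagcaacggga
Cited1: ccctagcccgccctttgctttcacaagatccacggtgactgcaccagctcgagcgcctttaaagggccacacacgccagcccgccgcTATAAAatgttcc
Pcdh8: catatcggcagcTATAAAgacggaggcggc

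The letters AGGTCA, a core element bound by many nuclear receptors, occurred on either strand in 1 of the 11 member windows, at the start of Cited1 farthest downstream (-217 to -212), and in 16.3% of all windows. The longer TCAAGGTCA, which contains it and is the extended element associated with Nr6a1, occurred in 0 member windows and 0.423% of all windows. All these letters were chosen after the promoters were seen, and a match or its absence says nothing of binding.

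Of the genes that commit cells to presomitic mesoderm, Tbx6 differed most. This T-box factor directs progenitors away from a neural and towards a paraxial mesoderm fate. Tbx6 read 7.75 and 7.92 in the wildtype embryos and 8.47 and 8.61 in the mutants. Both mutants lay above both wildtypes, by a distance several times the gap between replicates, which was 0.18 in wildtype and 0.14 in mutants. The log2 difference was 0.71 ± 0.096 (limma's moderated standard error, SE, n = 2 per genotype), with a 95% interval of 0.46 to 0.95 and an adjusted p of 0.0535. The interval thus spans 1.38-fold to 1.94-fold higher. Tbx6 reached an adjusted p of 0.05 in 5 of 11 alternative settings. The lowest was 0.0167 (an intensity trend in the variance) and the highest of these 0.0469 (arrays centred on their medians). The 11 include fits with 1 array left out, which leave 1 embryo in a group and were read for size alone. Tbx6 stayed short of 2-fold in all 11, at 0.62 to 0.79 on the log2 scale.

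Msgn1, a basic helix-loop-helix (bHLH) factor that acts with Tbx6 in the same cells, did not separate the genotypes. It read 7.16 and 7.18 in wildtype and 7.16 and 7.55 in mutants. Mutant replicate 1 lay with the wildtypes and mutant replicate 2 alone was higher. Its log2 difference of 0.19 ± 0.14 (SE) had a 95% interval of -0.16 to 0.54 (adjusted p = 0.515) and was -0.0065 without mutant replicate 2.

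The boundary genes of the anterior presomitic mesoderm differed from each other. Mesp1, a bHLH factor of early mesoderm and of the segmental stripe, read 7.06 and 6.93 in wildtype and 7.31 and 7.39 in mutants. All mutant values were above all wildtype values. Its log2 difference was 0.36 ± 0.083 (SE, 95% interval 0.15 to 0.57, adjusted p = 0.114). Mesp2, the neighbouring gene whose start lies 17137 bases away and which sets the boundary and the front compartment of the somite, read 6.77 and 6.80 in wildtype and 6.66 and 6.90 in mutants. The wildtypes lay between the mutants. The difference of -0.0064 ± 0.10 (SE) had a 95% interval of -0.26 to 0.25 on the log2 scale, from 0.834-fold to 1.19-fold (adjusted p = 0.987).

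Ripply2, a corepressor that brings Groucho proteins to T-box factors and clears Tbx6 from the new boundary, was the dimmest member. It read 3.78 and 3.86 in wildtype and 3.64 and 3.32 in mutants, with a mean signal that only 4.48% of probe sets lie at or below. Both mutants were lower, by -0.34 ± 0.12 on the log2 scale (SE, 95% interval -0.66 to -0.031, adjusted p = 0.216). Whether Ripply2 was above background is not known here, since the Y-linked Kdm5d and Eif2s3y read 3.42 and 4.25 in the female embryo, which lacks them, so its difference is a value and not a change in expression. Without Ripply2, 1 member was lower at an unadjusted p under 0.05 in limma (2172 of all 18193 genes). Both mutants lay below both wildtypes for 3 (30.4% of all genes). Ripply1 was not analysed here.

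The protocadherins are cell surface proteins that act in cell adhesion. Pcdh8, also known as paraxial protocadherin, has 2 probe sets, and in both the mutant mean rests on 1 embryo. The brighter read 9.07 and 9.18 in wildtype and 9.05 and 8.34 in mutants. The dimmer read 8.57 and 8.55 in wildtype and 8.49 and 7.74 in mutants. In both probe sets mutant replicate 1 lay just below the wildtypes and mutant replicate 2 well below them, the gap between mutants being 0.70 and 0.75 against 0.10 and 0.020 between wildtypes. The log2 differences were -0.43 ± 0.23 and -0.45 ± 0.24 (SE, adjusted p = 0.380 for each), and the 95% intervals reached from -1.02 to 0.16 and from -1.07 to 0.17. Without mutant replicate 2 the brighter probe set stood at -0.074, and without mutant replicate 1 at -0.78.

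Pcdh19, an X-linked protocadherin expressed in segmenting mesoderm and the nervous system, did not separate the genotypes in any of its 3 probe sets. The brightest read 8.68 and 8.95 in wildtype and 8.84 and 8.95 in mutants, and the female wildtype replicate 1 was the lowest of the embryos. The second read 8.44 and 8.68 in wildtype and 8.50 and 8.63 in mutants, again with the female lowest. The dimmest read 6.02 and 5.96 in wildtype and 5.94 and 6.03 in mutants. The log2 differences were 0.085 ± 0.11, 0.0072 ± 0.11 and -0.0037 ± 0.075 (SE, adjusted p = 0.738, 0.986 and 0.991), and the widest 95% interval, that of the brightest, ran from -0.20 to 0.37. Among the males alone, without wildtype replicate 1, the brightest stood at -0.050.

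Snai1, a zinc finger repressor of E-cadherin that also oscillates in the presomitic mesoderm and acts in neural crest, lay lower in the mutants by different amounts. It read 7.22 and 7.20 in wildtype and 6.76 and 7.15 in mutants. Mutant replicate 1 carried most of the difference, the reverse of Pcdh8, where mutant replicate 2 did. The log2 difference was -0.26 ± 0.14 (SE, 95% interval -0.60 to 0.092, adjusted p = 0.372), and -0.065 without mutant replicate 1. Of the neural crest markers, 0 were called and 5 of 6 lay below wildtype in both mutants, beside 30.4% of all genes, and their part in the difference was not tested.

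Cited1, a transcriptional coactivator that binds CBP and p300, was the brightest member and gave the second widest separation above wildtype. It read 12.42 and 12.47 in wildtype and 12.92 and 13.02 in mutants, a signal that 97.9% of probe sets lie at or below. Both mutants were higher and replicates differed by 0.057 and 0.11. The log2 difference was 0.53 ± 0.076 (SE, 95% interval 0.33 to 0.72, adjusted p = 0.0581), a 1.44-fold higher mean. Cited1 is X-linked, and among the males alone, without wildtype replicate 1, it stood at 0.50. It reached an adjusted p of 0.05 in 4 of 11 alternative settings, as low as 0.00706 with an intensity trend. Those with 1 array left out were read for size alone. The log2 difference was 0.47 to 0.58 over all 11. Cited1 is not restricted to presomitic mesoderm in the embryo, and the summed heart muscle and primitive erythroid markers were higher in the same embryos, a part that was not tested.

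Tcf15, also called paraxis, is the bHLH factor by which the cells of a new somite become an epithelium. It read 9.90 and 9.94 in wildtype and 9.54 and 9.55 in mutants. The genotypes were separated by far more than the replicates, whose gaps were 0.041 and 0.0075. The log2 difference was -0.37 ± 0.068 (SE, 95% interval -0.54 to -0.20, adjusted p = 0.0834), or 1.29-fold lower. It reached an adjusted p of 0.05 in 3 of 11 alternative settings, with 0.0239 the lowest, under an intensity trend, and ran from -0.39 to -0.35 over the 11. Tcf15 thus had the narrowest range of the members, and Pcdh8, at -0.78 to -0.07, the widest.

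**Figure D3:**
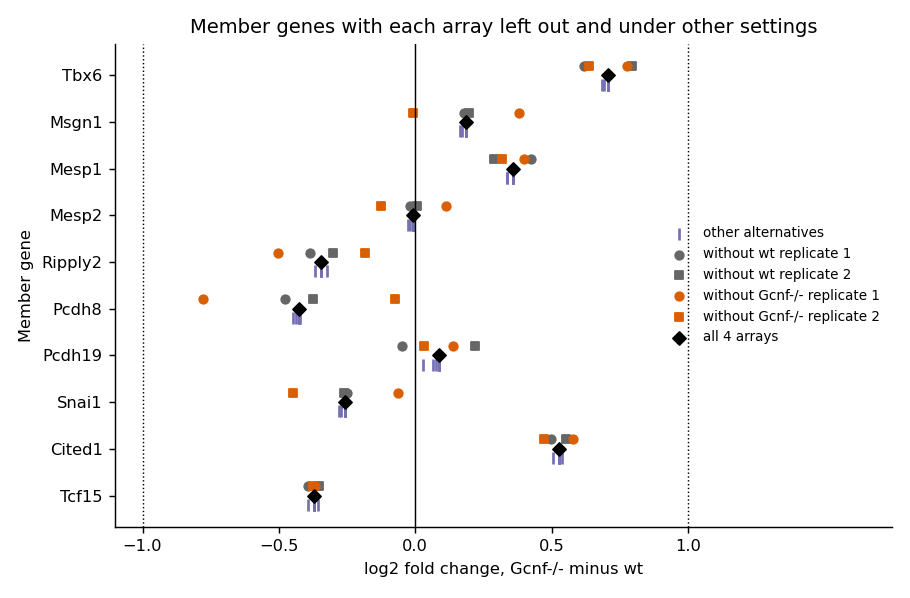
Log2 fold change (horizontal axis, Gcnf-/- minus wt) of the 10 member genes (vertical axis) with all 4 arrays (black diamonds), with 1 array left out (circles and squares) and under the other alternatives (purple ticks). Dotted lines mark 2-fold. Tbx6, Mesp1, Cited1 and Tcf15 stay on their side of 0 with little spread, whereas Msgn1, Mesp2 and Pcdh19 cross 0 with 1 array left out.

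The genes around the members were described from 6 lists, 102 genes in all, of which 95 had a probe set with a single symbol. Of these 95, 2 were called lower and 0 higher, and 3 in each direction had an adjusted p of at most 0.05 at any fold, against 0.544% of all genes called and 1.40% at that adjusted p. With the replicate number as a block, all 6 missed that adjusted p (0.160 to 0.182), but so did all 18193 genes. With any 1 array left out, all 6 kept their direction. These checks were added after the data were seen. The median log2 difference of the 95 genes was -0.011, beside -0.010 over all genes, and 0.22 without sign.

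Notch components that drive the segmentation clock had small differences, with a median log2 difference of 0.079 without sign. Of 14 measured, 8 lay below wildtype and 6 above, with a median of -0.034 and 0 called, and 1 was at an unadjusted p under 0.05 in limma, against 23.8% of all genes. The 2 with the smallest p were Lfng, the glycosyltransferase that modulates Notch in each cycle, at -0.50 ± 0.11 (SE, adjusted p = 0.109), and Hes7, the repressor of the clock, at 0.29 ± 0.12 (adjusted p = 0.273).

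Wnt, FGF and T-box inputs from the tail end split evenly. Of 28 measured, 14 lay on each side, with a median of -0.0060. T and Tcf7 were listed but not measured here, so the split does not cover them. At an unadjusted p under 0.05 in limma, 9 were lower and 6 higher, against 23.8% of all genes. Fgf18 alone was called. This FGF ligand fell by 1.08 ± 0.077 on the log2 scale (SE, limma adjusted p = 0.0166). Cdx1, a caudal homeobox gene named after its values were seen, stood at 1.22 ± 0.21 without passing (adjusted p = 0.0746), and at 0.90 without mutant replicate 2. Cdx1 passed in limma under an intensity trend (adjusted p = 0.0249), among brighter probe sets (0.0448) and with probe sets averaged (0.0461). It did not pass under the replicate block, repeated quantile normalisation, median centring or robust eBayes.

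Genes of the anterior presomitic mesoderm and the newly formed somite had the largest median difference of the 6 lists when taken without sign. Of 20 measured, 11 lay below wildtype and 9 above, with a median of -0.066, or 0.62 without sign against 0.11 for all genes. The lists were chosen with earlier results of these data known, so this size describes the list and is no result about the tissue. At an unadjusted p under 0.05 in limma, 8 were lower and 6 higher, against 23.8% of all genes. Dmrt2, a regulator of the dermomyotome, fell by 1.13 ± 0.10 (SE, adjusted p = 0.0305) and was the single gene called. Higher in the mutants, and short of 2-fold, were Aldh1a2, the enzyme that makes retinoic acid in somites, by 0.84 ± 0.11 (adjusted p = 0.0487), and Epha4, an Eph receptor at segment boundaries, by 0.70 ± 0.078 (adjusted p = 0.0414). Under robust eBayes in limma, Aldh1a2 missed an adjusted p of 0.05 (0.0511). All 5 probe sets of Epha4 lay above wildtype, at 0.21 to 0.70. Uncx at -1.17 and Meox2 at -1.05, also named after their values were seen, exceeded 2-fold without passing (adjusted p = 0.170 and 0.103). Uncx read 7.33 and 6.29 in wildtype and 5.84 and 5.43 in mutants, and without wildtype replicate 1 its difference was -0.65. Meox2 stood at -0.77 without mutant replicate 2. In limma it passed under an intensity trend (adjusted p = 0.0439) and with its probe sets averaged (-1.17, adjusted p = 0.0446). It did not pass under the replicate block, repeated quantile normalisation, median centring or robust eBayes.

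Among genes of the switch between epithelium and mesenchyme, 8 of 14 lay above wildtype with a median of 0.039. At an unadjusted p under 0.05 in limma, 2 were lower and 4 higher, against 23.8% of all genes. Epcam, an epithelial adhesion molecule, rose by 0.63 ± 0.071 (SE, adjusted p = 0.0414), short of 2-fold, while its second probe set read 0.22. The mesenchymal repressor Zeb2, named after its values were seen, stood at 1.00 ± 0.22 in its brightest probe set (adjusted p = 0.108), and at 0.67 without wildtype replicate 1. With all probe sets of Zeb2 averaged, the log2 difference was only 0.11 (adjusted p = 0.358), so the 2-fold value is not shared by its probe sets. Of 10 other protocadherins, 6 lay below wildtype with a median of -0.17. At an unadjusted p under 0.05, 5 were lower and 0 higher, against the same 23.8%. Pcdh1, short of 2-fold, was lower by a log2 difference of -0.60 ± 0.072 (adjusted p = 0.0442). Of 9 relatives of Cited1 and other helix-loop-helix factors, 0 passed and 5 were at an unadjusted p under 0.05, against 23.8% of all genes. Tcf21, a bHLH factor of mesodermal organs, stood at 0.74 ± 0.11 (adjusted p = 0.0620) and Cited4 at 0.56 ± 0.13 (adjusted p = 0.117).

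**Figure D4:**
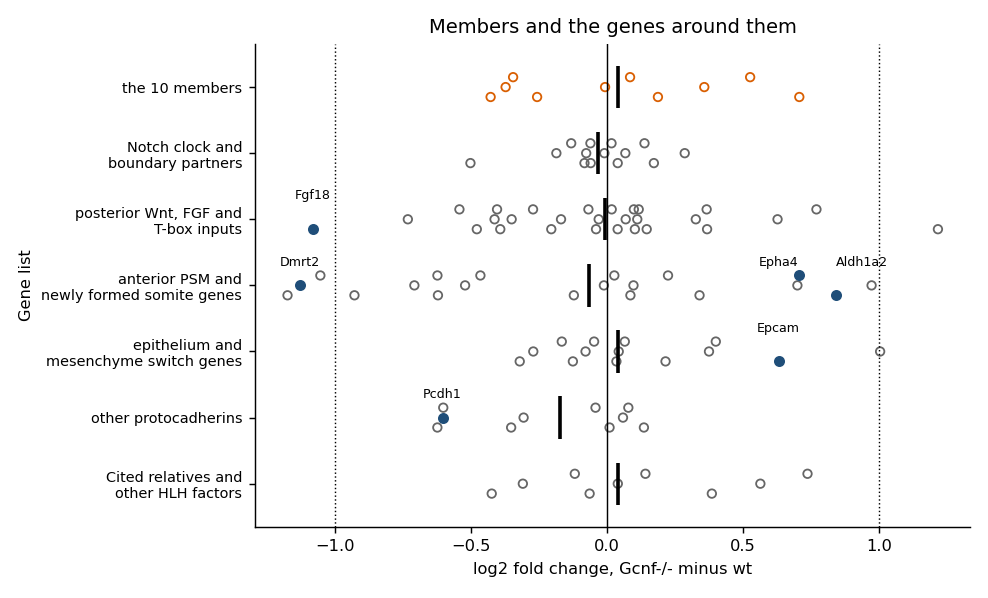
Log2 fold change (horizontal axis, Gcnf-/- minus wt) of the 10 members (orange) and of the genes in the 6 lists around them (grey), with list medians as black bars. Filled blue points reached an adjusted p of 0.05 in limma and dotted lines mark 2-fold. Of the members, 0 are filled, and the Notch list has the smallest median taken without sign (0.079, not drawn).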

How the data were processed

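RNA of whole embryos was hybridised to Affymetrix mouse genome arrays, 4 in all. The log2 signals deposited by the authors had been computed with RMA (background correction, quantile normalisation between arrays and summary of each probe set). The sources used here do not name its version or annotation. Quantile normalisation removes a change shared by most transcripts. Of 45101 probe sets, 64 controls were left out. The platform annotation gave a single symbol to 34945, several to 932 and none to 9160, and 99.4% of the single symbols matched GRCm38.p6 by Entrez identifier. A gene stands by its brightest probe set. Genotypes were compared with limma 3.58.1 in R 4.3.3 (lmFit, eBayes, genotype only), with Benjamini-Hochberg adjustment over 45037 probe sets. A call needed an adjusted p of 0.05 and a 2-fold change, the study's thresholds. The 95% intervals use the moderated SE with 5.16 degrees of freedom. Precision is limited by 2 arrays per group, where a two-sided exact permutation p cannot go below 0.333. The limma p-values set a difference against the spread between these samples, moderated by the spread of all probe sets. The litters of the samples are not given. The fit was tested on simulated data. Text names every member probe set and the list genes at an adjusted p of 0.05, or the 2 with the smallest p in a list that had none. Members, lists and promoter letters were chosen with earlier results of these data known. Alternatives were the replicate block, 1 array left out, median centring, a second quantile normalisation, an intensity trend, robust eBayes, brighter probe sets alone, the mean of a gene's sets and other fold thresholds.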

Additional observations from a re-analysis of the deposited data

How the results depend on the processing

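The number of arrays limits these results. Over 11 alternatives 0 of the 10 members were called, nor were any in the full fit at 1.5-fold or with no fold threshold. Of 109 values for single genes, 4 changed sign, all with 1 array left out and none past an adjusted p of 0.05. Leaving out 1 array, Msgn1 ranged from -0.0065 to 0.38, Mesp2 from -0.13 to 0.11, including 0.0069 without wildtype replicate 2, Pcdh19 from -0.050 to 0.22, and the median of the members from -0.040 (mutant replicate 2 left out) to 0.13 (mutant replicate 1 left out). The calls in the surrounding lists, 2 with all arrays, numbered 5 with an intensity trend, and the cause was not tested. Fits with 1 array left out leave 1 embryo in a group and were read for size alone. In them Fgf18 stood at -1.14 to -1.02 and Dmrt2 at -1.22 to -1.03. Calls in these lists numbered 0 under the replicate block, which leaves 1 residual degree of freedom. Embryos with the same number share no stated origin, and their deviations correlated at 0.058. The block changed no member's call (lowest adjusted p = 0.167, Tbx6). At any fold, members at an adjusted p of 0.05 numbered 3 among probe sets with a mean log2 signal above 6 (Ripply2 was too dim to enter), 2 after repeated quantile normalisation, 1 after median centring, 3 under the trend, 3 when a gene's probe sets were averaged and 0 in the others. Over all genes that count was 254 at first and 836, 470, 373, 1601 and 731 in these settings. All genes called numbered 99, against 0 with the block and 154 with the trend.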
